A study of Homo sapiens with 11 samples.

Results

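Mitochondrial ribosomal proteins are the nuclear-encoded proteins of the ribosome that works inside mitochondria. They were taken as every protein-coding gene of the count table whose symbol starts with MRPL or MRPS followed by a digit, which gave 78 of 58735 listed genes. Of these, 51 encode proteins of the large subunit and 26 proteins of the small subunit. The large subunit includes 2 proteins that carry an MRPS symbol, MRPS18A and MRPS30. The remaining member, MRPS36, carries a ribosomal symbol but is known as a subunit of the oxoglutarate dehydrogenase complex. In all, 77 members passed the filter on low counts and were tested, among 18368 genes tested.

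The mitochondrial ribosome translates the few mRNAs that the mitochondrial genome encodes, all of them for subunits of the respiratory chain and ATP synthase. Its rRNAs come from the mitochondrial genome, whereas its proteins are made in the cytosol from nuclear mRNAs and imported. Many of these proteins have a counterpart in the bacterial ribosome, and the others were gained in the mitochondrial lineage.

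The data are RNA-seq of HEK293T, an established cell line of embryonic kidney origin, in 11 libraries of 4 groups. The control siRNA group had 3 libraries. Cells were transfected for 48 h with siRNA against NAE1 at 50 nM (siNAE1, 3 libraries), UBE2M at 70 nM (siUBE2M, 3 libraries) or URM1 at 60 nM (siURM1, 2 libraries). NAE1 is a subunit of the E1 enzyme of the ubiquitin-like protein NEDD8, UBE2M is an E2 enzyme of NEDD8, and URM1 is a ubiquitin-like protein that also carries sulfur for tRNA thiolation, and the study asked how gene expression depends on URM1 and on these enzymes. One siRNA product per target was used, at doses that differed, so an effect of the target and of that product cannot be told apart. The labels call the control group control siRNA, and the study's methods name a non-targeting siRNA as negative control, although a legend abbreviates the group as HKWT. The labels describe the libraries of a group as biological replicates.

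Counted fragments per library ranged from 11733163 to 16321391, and all 78 members together took between 0.439% and 0.551% of them. The targeted gene was lower in its own knockdown, with log2 fold changes of -1.36 ± 0.08 (SE) for NAE1, -3.98 ± 0.08 for UBE2M and -1.81 ± 0.10 for URM1. The HEK293 lineage markers summed to between 190 and 404 CPM (counts scaled to library size). They were not even across groups. In siUBE2M, the log2 fold changes of PAX2 and LIN28B were -0.90 ± 0.15 and -0.82 ± 0.09, and those of NEFM and NEFL -0.12 ± 0.07 and 0.18 ± 0.07. In siNAE1, NEFM, NEFL and LIN28B had 1.19, 0.74 and 0.24 and PAX2 -0.08, and in siURM1 NEFM and PAX2 had 1.19 and 0.92, NEFL 0.07 and LIN28B -0.12. The part of these shifts in the members' values was not tested. The 6 hepatocyte markers summed to at most 0.773 CPM with APOB and SERPINA1 at 0 in every library, and the 4 leukocyte markers to at most 8.83 CPM with CD3E at 0. Among the latter CD14 was at 0.474 CPM in control and rose to 2.44 CPM in siNAE1 and 2.49 CPM in siUBE2M, by 2.35 ± 0.41 and 2.38 ± 0.41 on the log2 scale (edgeR adjusted p = 1.4e-05 and 1.5e-05), at 3 to 45 counts per library.

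Promoter sequence was available for 69 members, as 85 RefSeq windows (GRCh38.p14) that run from 250 bases before to 50 bases after a gene's start. The sequences below are stretches of 60 bases in the upstream regions of 5 members on which results below turn, or which share a motif with them, and the capitals mark the motif. The first 3 hold CCGGAAG or its reverse complement, the core to which ETS factors such as GABPA bind, and the last 2 hold GCGCATGCG, the core of the NRF1 motif.
MRPS10, chr6:42217866-42217925, minus strand: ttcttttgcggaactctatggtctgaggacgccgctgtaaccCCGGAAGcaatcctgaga
MRPS18A, chr6:43687792-43687851, minus strand: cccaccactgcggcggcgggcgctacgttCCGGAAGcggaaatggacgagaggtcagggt
MRPS34, chr16:1773173-1773232, minus strand: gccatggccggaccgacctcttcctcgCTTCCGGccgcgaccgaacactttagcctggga
MRPL17, chr11:6683402-6683461, minus strand: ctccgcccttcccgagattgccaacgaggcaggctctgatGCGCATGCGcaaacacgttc
MRPL22, chr5:154941010-154941069, plus strand: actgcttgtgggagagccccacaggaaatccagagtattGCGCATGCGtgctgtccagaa

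Over both strands, CCGGAAG was found in 38.8% of the 85 member windows, in 15.3% of the 17005 windows of tested genes and in 10.3% of all 35116 windows. The YY1 core AAGATGGCG was found in 15.3%, 3.05% and 1.75% of these windows. The NRF1 core was in 3.53%, 2.95% and 1.92%, the SP1 core GGGGCGG in 40%, 46.5% and 30.8%, the E-box CACGTG in 10.6%, 9.12% and 7.26%, TATAAA in 3.53%, 6.67% and 11.5%, and CCAAT in 32.9%, 34.3% and 34.6%. Member promoters therefore held the ETS and YY1 letters more often than those of other genes, and the other motifs at shares closer to theirs. A match shows that the letters are there and not that a factor binds.

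In the control cells the members were expressed at a median of 21.6 FPKM (fragment counts scaled by gene length and library size), against 3.65 FPKM over all tested genes and 205.6 FPKM over the cytosolic ribosomal proteins. The quartiles of the members were 12.1 and 36.3 FPKM. The most abundant per length was MRPS34, a small subunit protein without a bacterial counterpart, at 138.6 ± 7.92 FPKM (SD, n = 3). It was followed by MRPL37 at 115.8 ± 3.00, MRPS26 at 96.2 ± 1.30, MRPL15 at 79.8 ± 2.09 and MRPS18B at 65.6 ± 1.64 FPKM. MRPS34, MRPL37, MRPS26, MRPL15 and MRPS18B thus stood in an order whose steps were larger than their SDs.

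The lowest was MRPS24, at 0.0928 ± 0.0611 FPKM, with 1 to 11 counts per library, and it was not tested. It lies inside the readthrough gene URGCP-MRPS24 on the same strand. MRPL46 and MRPL38, both of the large subunit, were next at 1.62 ± 0.0607 and 1.71 ± 0.153 FPKM. In total 13 members overlapped another protein-coding gene on the same strand and 26 overlapped one on the opposite strand. Whether counting kept the strands apart is not given. The count table also lists 75 pseudogenes with member symbols. Fragments that fit more than 1 of these genes could not be assigned surely, which makes the values of MRPS24, MRPL38, MRPL33, MRPL12, MRPL46, MRPL53, MRPS17 and MRPS28 less certain.

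The median of the members lay above control in siNAE1 and siURM1 and below it in siUBE2M. In siNAE1, 39 of 77 tested members were higher and 16 lower than control at an adjusted p below 0.05 (edgeR, quasi-likelihood test, Benjamini-Hochberg adjustment over all genes tested), where 27.6% and 27.1% of all genes were higher and lower. In siUBE2M, 14 members were higher and 32 lower, against 22.7% and 22.6% of all genes. In siURM1, 29 members were higher and 10 lower, against 20.8% in each direction. The median log2 fold change of the members was 0.25 in siNAE1, -0.13 in siUBE2M and 0.12 in siURM1, while that of all tested genes was -0.00, 0.01 and -0.02. All 3 comparisons share the control libraries. In bulk RNA these are shares of each library, so that a change in every cell and a change in the make-up of the culture cannot be told apart.

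Library totals in place of TMM scaling moved the median of all genes to -0.13 in siNAE1 and -0.11 in siURM1, and the members lay 0.25 and 0.14 above these medians, as they did with TMM. With totals the members split into 9 higher and 39 lower in siUBE2M and into 19 higher and 14 lower in siURM1. Without the first control library 9 members were higher in siUBE2M and without the third siUBE2M library 8, and without the first siURM1 library 6 members were lower in siURM1. Genes that averaged 10 CPM or more, as 75 members did, were higher in 37.2% and lower in 30.7% of cases in siNAE1, in 30.5% and 29.5% in siUBE2M and in 29.9% and 25.6% in siURM1, where the share of higher members, 37.7%, was closer to this background than to that of all genes. Between siNAE1 and siUBE2M these genes were higher in 32.1% and lower in 25.9%.

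**Figure D1:**
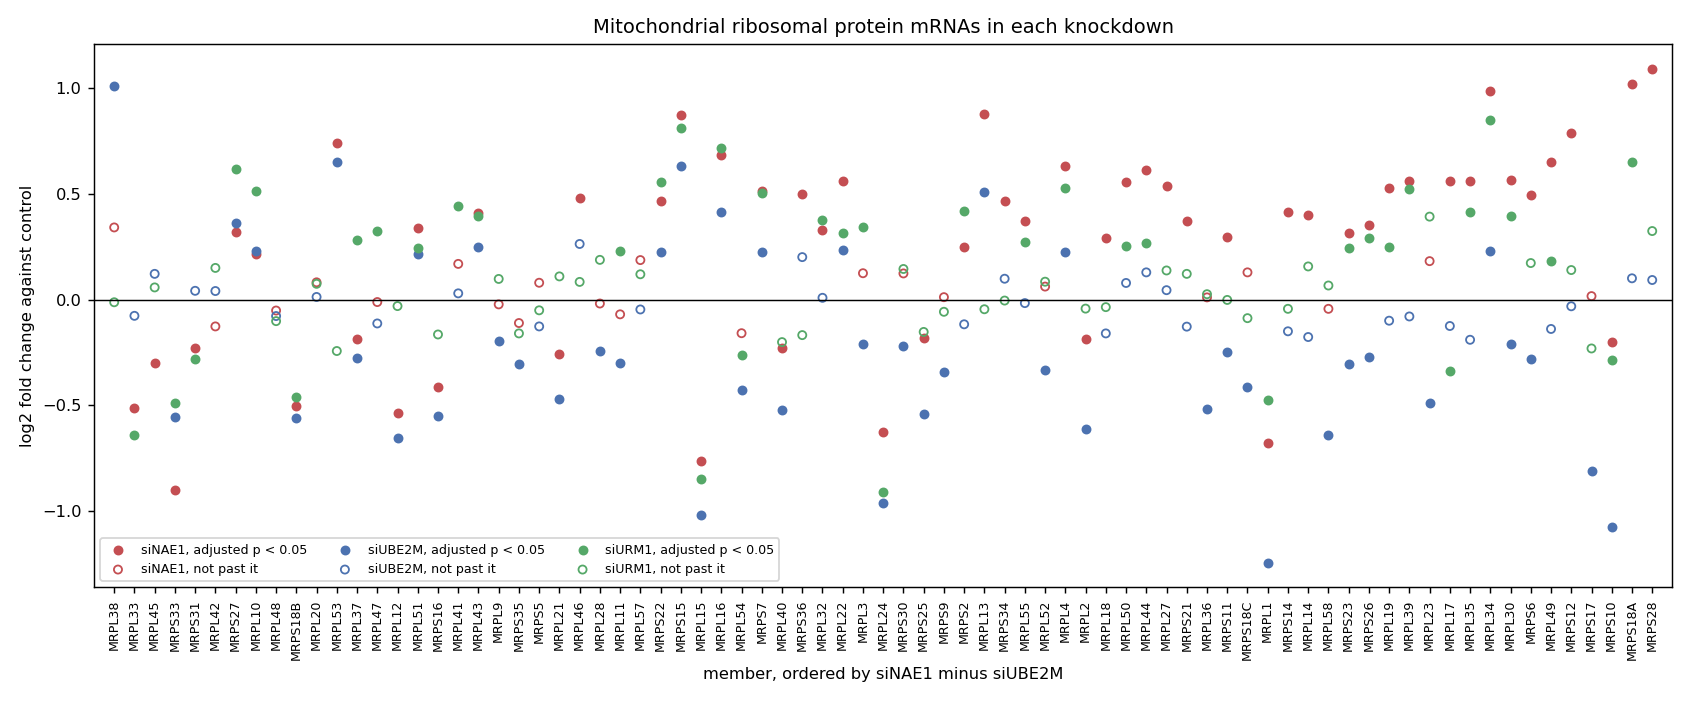
Log2 fold change of the 77 tested members against control (vertical axis) in siNAE1 (red), siUBE2M (blue) and siURM1 (green), with members ordered by the difference between siNAE1 and siUBE2M. Filled points passed an adjusted p of 0.05 and open points did not, and most blue points lie below the red point of the same member.

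The direct comparison of siNAE1 with siUBE2M showed the difference between these 2 groups most clearly. Its contrast leaves out the control group, although the control libraries share the filter, scaling and spread of the fit. There 56 members were higher in siNAE1 and 6 were lower, with a median difference of 0.33 on the log2 scale, against 22.7% and 21.6% of all genes and a median of -0.02. Of 81 tested cytosolic ribosomal proteins, 16 were higher and 15 lower, with a median of 0.05, and the difference between the 2 kinds of ribosomal protein was not tested. Against control 56 of the 81 (69.1%) were higher and 7 lower in siNAE1, 47 (58%) and 4 in siUBE2M, and 54 (66.7%) and 5 in siURM1, where 27.6%, 22.7% and 20.8% of all genes were higher. Their medians were 0.31, 0.20 and 0.29, and in siUBE2M the medians of the 2 kinds lay on opposite sides of control.

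Against siURM1, siUBE2M had 6 members higher and 45 lower, with a median of -0.29, where 16.7% and 18.3% of all genes were higher and lower. siNAE1 and siURM1 differed less, with 22 members higher in siNAE1, 14 lower and a median of 0.07, against 19.5% and 19.1% of all genes. The members therefore sat lowest in siUBE2M in both comparisons that include it.

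The summed level of all members was lowest in siUBE2M, and its siNAE1 and siURM1 libraries interleaved. In the control libraries the sum was 4911, 5149 and 4946 CPM. In siNAE1 it was 5283, 5650 and 5733 CPM, and in siUBE2M 4370, 4317 and 4771 CPM. The 2 siURM1 libraries had 5358 and 5603 CPM. Every siNAE1 and siURM1 library was above, and every siUBE2M library below, all control libraries on this TMM scale. As plain percent of counts, siNAE1 (0.517% to 0.545%) and siURM1 (0.526% and 0.551%) overlapped control (0.516% to 0.534%), and siUBE2M (0.439% to 0.471%) stayed below it. In percent of the control mean the sum was 111.1 ± 4.78 (SD, n = 3) in siNAE1, 89.7 ± 4.96 (n = 3) in siUBE2M and 109.6 ± 3.46 (n = 2) in siURM1. The large subunit alone summed to 110.6, 90.1 and 111.8 percent and the small subunit to 111.5, 88.6 and 105.9 percent.

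Short mRNAs were higher in siNAE1 than long ones, with a median log2 fold change of 0.15 for protein-coding genes of 1000 to 2000 bases and -0.03 above 5000 bases. Members are short, with a median listed length of 2539 bases against 5076 for the protein-coding genes tested. Among the 36 members of 2000 to 5000 bases the median difference between siNAE1 and siUBE2M was 0.36, against 0.07 for 5706 protein-coding genes of that length. Among the 11 longer members it was 0.24, against -0.05 for 7133 genes, and among the 29 members of 1000 to 2000 bases 0.33, against 0.17 for 1029 genes. Against control these 29 members had a median of 0.01 in siNAE1 and 0.03 in siURM1, below the 0.15 and 0.06 of genes of that length, whereas in siUBE2M they had -0.13 against -0.02. The part of gene length in these results was not tested further. With trends in GC content and gene length removed, 50 members were higher in siNAE1 than in siUBE2M and 6 lower, and 28 were higher and 16 lower in siURM1 than in control.

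Both subunits showed the difference between siNAE1 and siUBE2M. Of the 51 large subunit members, 35 were higher in siNAE1 than in siUBE2M and 4 lower (median 0.33), and of the 25 tested small subunit members 20 were higher and 2 lower (median 0.36). Among the 15 tested small subunit proteins with a bacterial counterpart 14 were higher and none was lower, all 15 were above 0, and the median was 0.54. For the 10 small subunit proteins without one, 6 were higher and 2 lower, with a median of 0.22. In the large subunit, 23 of 29 members with a counterpart were higher and 1 lower (median 0.33), and 11 of 21 without one were higher and 3 lower (median 0.23). In siURM1 against control, 22 of the 51 large subunit members (43.1%) were higher and 6 (11.8%) lower, with a median of 0.15. Of the 25 small subunit members 7 (28%) were higher and 4 (16%) lower, with a median of -0.005. Over all genes 20.8% were called in each direction there. Whether these classes or the subunits differ was not tested.

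By the place of the protein in the ribosome, the counts are small and stand beside 72.7% higher and 7.79% lower over all tested members and 22.7% and 21.6% over all genes, and whether any place differs from the other members was not tested. All 4 members at the peptidyl transferase centre, where peptide bonds form, were higher in siNAE1 than in siUBE2M. So were all 4 of the small subunit head, all 5 of the platform and all 3 tested members at the mRNA channel and decoding site. Of the 6 proteins at the rim of the exit tunnel, through which the new chain leaves, 4 were higher and 1 lower, and of the 6 of the central protuberance 3 were higher and 1 lower. The 3 proteins of the stalk and its base, which recruit translation factors, had 1 higher and none lower by edgeR, with the lowest difference at -0.02.

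Few of the 77 tested members changed by 2-fold or more. In siUBE2M their share was near that of all genes, which include genes of lower counts than most members. Whether fewer members changed than genes of their level was not tested. At an adjusted p below 0.05 and a log2 fold change of at least 1 in size, 2 members passed in siNAE1, 4 in siUBE2M and none in siURM1 by edgeR, where 13.9%, 7.11% and 7.62% of all genes passed. With DESeq2 the numbers were 2, 4 and 0, and at an unadjusted p below 0.05 with the same fold they were also 2, 4 and 0. Several lay close to the fold threshold, and in siNAE1 1 of the 2 was left without the first or the second control library or the third siNAE1 library.

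In siNAE1 the pair was MRPS28 and MRPS18A. MRPS28, a small subunit protein, had 3.68, 4.61 and 4.61 CPM in the control libraries and 8.60, 9.93 and 8.88 CPM in the siNAE1 libraries. Its siUBE2M libraries had 5.38, 4.52 and 3.86 CPM and its siURM1 libraries 5.62 and 5.13 CPM. The siNAE1 libraries were all above every other library, with a log2 fold change of 1.09 ± 0.18 (SE, edgeR adjusted p = 3.5e-06), whereas siUBE2M overlapped control.

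MRPS18A is a large subunit protein despite its symbol. It had 14.2, 13.2 and 13.4 CPM in control, 25.6, 28.2 and 29.1 CPM in siNAE1, 15.8, 12.98 and 15.1 CPM in siUBE2M and 22.6 and 20.02 CPM in siURM1. It rose by 1.02 ± 0.11 in siNAE1 (edgeR adjusted p = 1.4e-09) and by 0.65 ± 0.12 in siURM1 (edgeR adjusted p = 4.7e-05), and siUBE2M overlapped control.

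In siUBE2M 3 members fell by 2-fold or more. MRPS10, a protein of the small subunit head, had 68.7, 69.7 and 66.4 CPM in control and 32.3, 31.4 and 33.5 CPM in siUBE2M. In siNAE1 it had 59.5, 59.4 and 59.5 CPM and in siURM1 51.4 and 60.9 CPM. The siUBE2M libraries were below all others, with a log2 fold change of -1.08 ± 0.08 (edgeR adjusted p = 9.3e-13) and 0.88 ± 0.08 lower than in siNAE1 (edgeR adjusted p = 1.4e-10). Its smaller fold changes of -0.20 in siNAE1 and -0.28 in siURM1 also passed the threshold, but lost it without either of the first 2 control or siNAE1 libraries (edgeR adjusted p between 0.054 and 0.084) and without the first siURM1 library (edgeR adjusted p = 0.26).

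MRPL1, a large subunit protein of the L1 stalk, had 43.1, 54.0 and 43.4 CPM in control and 16.8, 20.2 and 22.4 CPM in siUBE2M. In siNAE1 it had 26.1, 30.8 and 31.0 CPM and in siURM1 28.9 and 38.6 CPM. It lay below control in every knockdown library and fell by 1.24 ± 0.11 in siUBE2M, by 0.68 ± 0.11 in siNAE1 and by 0.48 ± 0.12 in siURM1 on the log2 scale, the last of which did not pass without the first siURM1 library (edgeR adjusted p = 0.16).

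MRPL15, another large subunit protein, had 96.5, 97.8 and 93.2 CPM in control and between 46.0 and 59.3 CPM in all 8 knockdown libraries. It fell by 1.02 ± 0.07 in siUBE2M, 0.76 ± 0.07 in siNAE1 and 0.85 ± 0.08 in siURM1. MRPL38, of the central protuberance, was the 1 member past the fold that rose in siUBE2M. It had 6.04, 6.95 and 5.99 CPM in control, 11.8, 12.9 and 13.5 CPM in siUBE2M, 8.22, 7.20 and 8.70 CPM in siNAE1 and 5.05 and 7.55 CPM in siURM1. It rose by 1.01 ± 0.15 in siUBE2M (edgeR adjusted p = 2.2e-06) and was the highest of the 14 members that rose there, although it overlaps another gene on its strand.

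**Figure D2:**
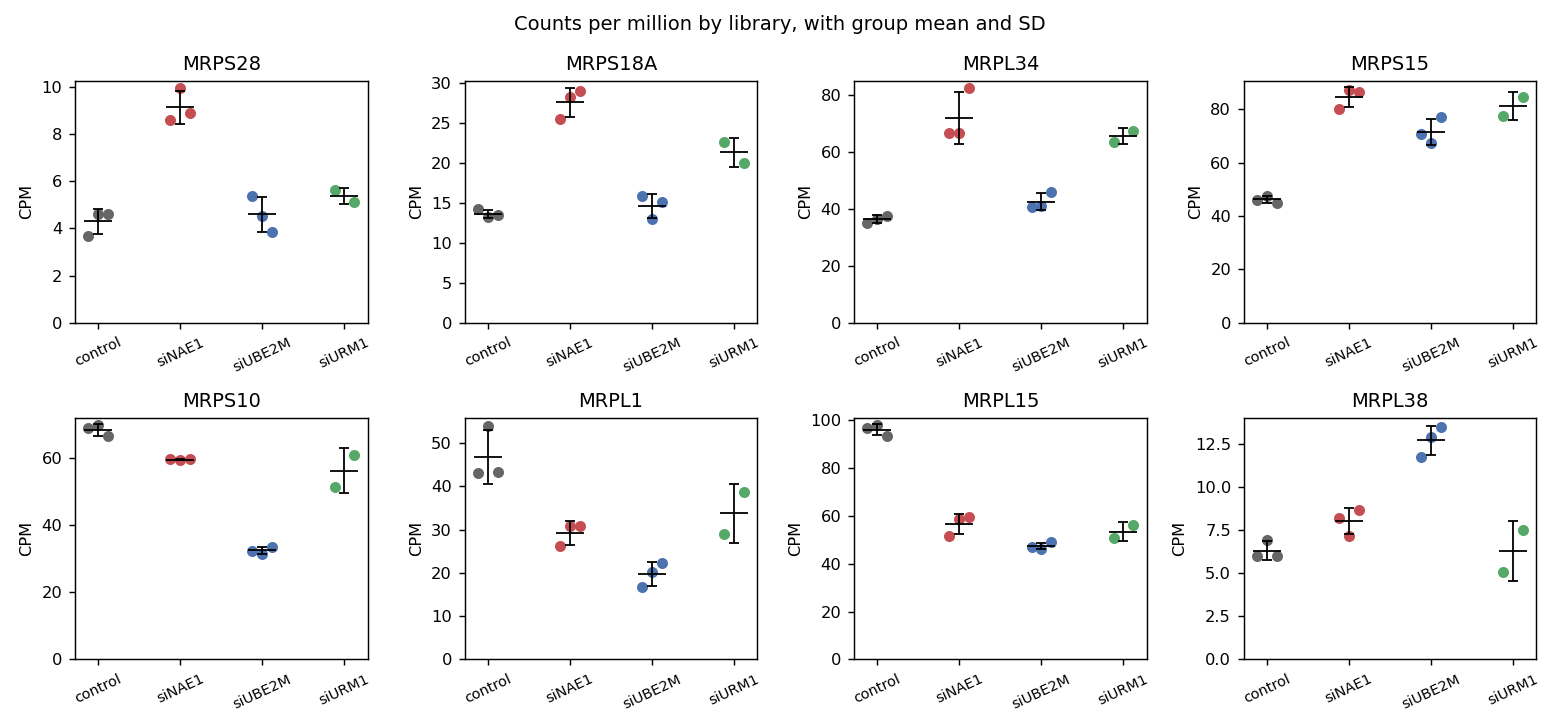
CPM of 8 members in each library (points), with the group mean and SD (black), on axes that start at 0. MRPS28 and MRPS18A are highest in siNAE1, MRPL34 is high in siNAE1 and siURM1, whose libraries overlap, MRPS10 and MRPL1 are lowest in siUBE2M, MRPL15 is low in all 3 knockdowns and MRPL38 is high in siUBE2M.

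Some members were called higher in all 3 knockdowns, although by sizes that in part differed between them. MRPS15, of the small subunit, had 46.2, 47.6 and 45.05 CPM in control and between 67.3 and 87.3 CPM in the knockdown libraries, with log2 fold changes of 0.87 ± 0.07 in siNAE1, 0.63 ± 0.07 in siUBE2M and 0.81 ± 0.08 in siURM1. MRPL16, a large subunit protein, followed with 0.68, 0.41 and 0.71, and MRPS27, a small subunit protein without a bacterial counterpart, with 0.32, 0.36 and 0.61. MRPL43 rose by 0.41, 0.25 and 0.39. In the direct comparisons siNAE1 exceeded siUBE2M by 0.24 for MRPS15, 0.27 for MRPL16 and 0.33 for MRPL22 (edgeR adjusted p = 0.0077, 0.0053 and 0.0011), and MRPS27 was 0.29 lower in siNAE1 than in siURM1 (edgeR adjusted p = 5.7e-04). MRPL22, at the exit tunnel rim, rose by 0.56, 0.23 and 0.32, but its siUBE2M change did not pass without the first control library or the third control library or the third siUBE2M library, nor its siURM1 change without the second siURM1 library.

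In the other direction, MRPL24, an exit tunnel rim protein, had 100.2, 94.3 and 89.3 CPM in control and between 46.7 and 65.0 CPM in the knockdown libraries, with log2 fold changes of -0.62 in siNAE1, -0.96 in siUBE2M and -0.91 in siURM1. MRPS18B fell by 0.50, 0.56 and 0.46. MRPS33 fell by 0.90 ± 0.09 in siNAE1, its lowest group, and by 0.56 and 0.49 in siUBE2M and siURM1. Each of these members lay below every control library in all 8 knockdown libraries, and the knockdowns were compared with the same control libraries.

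Others were high in part of the knockdowns. MRPL34 had 34.9, 36.5 and 37.7 CPM in control, 66.8, 66.6 and 82.5 CPM in siNAE1, 40.5, 41.2 and 46.0 CPM in siUBE2M and 63.5 and 67.5 CPM in siURM1. It rose by 0.98 ± 0.09 in siNAE1 and 0.85 ± 0.09 in siURM1. Its change of 0.23 ± 0.09 in siUBE2M (edgeR adjusted p = 0.033) did not pass without the first or second control library or the third siUBE2M library.

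MRPL13 rose by 0.87 ± 0.09 in siNAE1 and 0.51 ± 0.09 in siUBE2M, and its value was -0.05 ± 0.10 in siURM1. MRPL53 showed the same, with 0.74 ± 0.14, 0.65 ± 0.14 and -0.24 ± 0.17. MRPL17 rose by 0.56 ± 0.08 in siNAE1, fell by 0.34 ± 0.09 in siURM1 and had a value of -0.13 ± 0.08 in siUBE2M. siNAE1 exceeded siURM1 for these 3 by 0.92, 0.98 and 0.90 on the log2 scale, the widest such differences among the members. The siURM1 change of MRPL17 did not pass without the second siURM1 library (edgeR adjusted p = 0.057).

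MRPL12, a stalk protein known to bind the mitochondrial RNA polymerase as well, fell by 0.54 ± 0.08 in siNAE1 and 0.65 ± 0.08 in siUBE2M, with a value of -0.03 ± 0.09 in siURM1. MRPL37 fell by 0.19 in siNAE1 and 0.28 in siUBE2M and rose by 0.28 in siURM1, and the siNAE1 change did not pass without the first siNAE1 library. MRPL33 fell by 0.51 ± 0.11 in siNAE1 and 0.64 ± 0.12 in siURM1, and in siUBE2M its value was -0.08 ± 0.10. MRPL45, at the exit tunnel, fell by 0.30 ± 0.08 in siNAE1, and in siUBE2M and siURM1 its values were 0.12 and 0.06. MRPL38, MRPL33 and MRPL45 had the lowest differences of siNAE1 from siUBE2M, at -0.67, -0.43 and -0.42, and for MRPL38 this went with its rise in siUBE2M, since its value against control in siNAE1 was 0.34 ± 0.16.

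MRPS17, a small subunit protein, fell by 0.81 ± 0.15 in siUBE2M, with 0.02 ± 0.14 in siNAE1 and -0.23 ± 0.16 in siURM1. MRPL23, at the tunnel rim, was 0.88 ± 0.20 lower in siUBE2M than in siURM1, a difference that did not pass without the second siURM1 library (edgeR adjusted p = 0.42). Of the abundant members, MRPS34 rose by 0.46 ± 0.07 in siNAE1, with 0.10 ± 0.07 in siUBE2M and -0.01 ± 0.07 in siURM1. MRPS26 rose by 0.35 ± 0.08 in siNAE1 and 0.29 ± 0.09 in siURM1 and fell by 0.27 ± 0.08 in siUBE2M, while siNAE1 and siURM1 overlapped, and its siURM1 and siUBE2M changes each failed to pass without the second library of that group. MRPL46 rose by 0.48 ± 0.13 in siNAE1.

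The motif letters were also counted among members that rose and those that fell. Of members with a promoter window, 14 of 34 that were higher in siNAE1 held CCGGAAG and 6 of 13 that were lower. In siUBE2M it was 6 of 12 higher and 13 of 28 lower. The SP1 letters GGGGCGG were in 22 of 34 higher and 4 of 13 lower members in siNAE1, and in 9 of 12 and 8 of 28 in siUBE2M, and CCAAT was in 15 of 34 and 2 of 13, and in 6 of 12 and 6 of 28. The YY1, NRF1, E-box and TATA letters were in at most 5 members of any of these sets. These splits are a description and were not tested. The window of MRPS10, lowest in siUBE2M, and those of MRPS18A and MRPS34, high in siNAE1, are among the sequences printed above.

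A divergent protein-coding gene started within 1000 bases of 17 members, or 21.8%, against 9.34% of the 14011 protein-coding genes tested. MRPS34 starts 52 bases from EME2, a gene for a DNA repair endonuclease subunit, which had log2 fold changes of 0.49 in siNAE1 and -0.24 in siUBE2M beside 0.46 and 0.10 for MRPS34. Of the 16 members whose divergent partner was tested, 10 differed in sign from the partner in siNAE1, 11 in siUBE2M and 9 in siURM1 against control, 8 when siNAE1 was set against siUBE2M, 5 when it was set against siURM1 and 12 for siUBE2M against siURM1, called or not, with MRPL46 and MRPS11 counted from both sides. MRPL46 and MRPS11, chosen here after their values were seen, are 2 members that start 34 bases apart on opposite strands. Their log2 fold changes were 0.48 and 0.29 in siNAE1 and 0.26 and -0.25 in siUBE2M, where that of MRPL46 did not pass (edgeR adjusted p = 0.11).

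The genes that build the mitochondrial ribosome were counted in the same way. Of 29 assembly factors, 13 were higher and 3 lower in siNAE1, 7 and 12 in siUBE2M and 7 and 6 in siURM1, with medians of 0.16, -0.13 and 0.05. The 44.8% higher and 10.3% lower in siNAE1 stood beside 27.6% and 27.1% of all genes, and the 41.4% lower in siUBE2M beside 22.6%. In siURM1 the 24.1% higher and 20.7% lower were near the 20.8% of all genes, as was the 24.1% higher in siUBE2M near 22.7%. Compared directly, 17 (58.6%) were higher in siNAE1 than in siUBE2M and 2 (6.9%) lower, against 22.7% and 21.6% of all genes, with a median of 0.34. GTPBP10, a GTPase of large subunit assembly, fell from 67.5, 67.5 and 79.8 CPM in control to between 21.7 and 34.6 CPM in all knockdown libraries, by 1.67 ± 0.10 in siNAE1, 1.33 ± 0.10 in siUBE2M and 1.16 ± 0.11 in siURM1. NOA1, a GTPase of small subunit assembly, rose from 36.0, 32.6 and 34.3 CPM to between 61.5 and 91.5 CPM, by 0.90, 1.03 and 1.39. MRM1, an rRNA methyltransferase, fell by 1.12 ± 0.16 in siUBE2M and 0.71 ± 0.17 in siURM1, with 0.07 ± 0.15 in siNAE1.

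Ribosomal proteins known by other symbols, 5 in all, had 4 higher and none lower in siNAE1, with all 5 above 0. They had 2 higher and 1 lower in siUBE2M, and 3 higher and none lower in siURM1. Over all genes 27.6%, 22.7% and 20.8% were higher. A list of 17 genes of mitochondrial translation held translation factors and some genes of other roles. Of the 17, 7 were higher and 7 lower in siNAE1, 4 and 6 in siUBE2M and 8 and 5 in siURM1. The 41.2% in each direction in siNAE1 stood beside 27.6% and 27.1% of all genes. The 23.5% higher in siUBE2M was near the 22.7% of all genes, and 47.1% were higher in siURM1, against 20.8%. Lower were 35.3% in siUBE2M and 29.4% in siURM1, against 22.6% and 20.8%. In the direct comparison 5 (29.4%) were higher and 5 lower in siNAE1 than in siUBE2M, against 22.7% and 21.6% of all genes. Among them GUF1, the mitochondrial relative of the elongation factor LepA, fell by 1.03 ± 0.11 in siNAE1, 0.35 ± 0.10 in siUBE2M and 0.51 ± 0.11 in siURM1. Another list held 20 genes that charge mitochondrial tRNAs, mostly aminoacyl-tRNA synthetases. Of these 20, 7 were higher and 5 lower in siNAE1, 4 and 8 in siUBE2M and 6 and 3 in siURM1. Their 35% and 25% in siNAE1 lay near the all-gene 27.6% and 27.1%, whereas 40% were lower in siUBE2M, against 22.6%.

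Genes of mitochondrial transcription and RNA handling were counted in a list that also holds DNA replication genes such as POLG. Of its 17 genes, 9 were higher and 1 lower in siNAE1, 7 and 5 in siUBE2M and 7 and 1 in siURM1. These were 52.9% and 5.88%, 41.2% and 29.4%, and 41.2% and 5.88%, against 27.6% and 27.1%, 22.7% and 22.6%, and 20.8% in each direction over all genes. POLG, the mitochondrial DNA polymerase that replicates the genome, rose by 1.19 ± 0.06, 0.85 ± 0.06 and 0.51 ± 0.07. KIAA0391, which encodes the mitochondrial RNase P nuclease PRORP, rose by 1.01 ± 0.14 in siUBE2M, with 0.29 ± 0.15 in siNAE1 and 0.17 ± 0.16 in siURM1. Of 10 tested regulators of mitochondrial gene expression, 4 were higher and 4 lower in siNAE1, 2 and 4 in siUBE2M and 5 and 2 in siURM1. In siNAE1 the 40% in each direction stood beside 27.6% and 27.1% of all genes. The 40% lower in siUBE2M and 50% higher in siURM1 stood beside 22.6% and 20.8%. The 20% of regulators higher in siUBE2M and 20% lower in siURM1 were near the 22.7% and 20.8% of all genes. Compared directly, 5 (50%) were higher and 2 (20%) lower in siNAE1 than in siUBE2M, against 22.7% and 21.6% of all genes. None was higher and 2 (20%) were lower in siUBE2M than in siURM1, against 16.7% and 18.3%. The 20% lower was near the share of all genes in both. MYC, a transcription factor of cell growth, had 166.1, 157.4 and 176.6 CPM in control, 229.6, 233.3 and 244.7 CPM in siNAE1, 103.3, 100.7 and 100.4 CPM in siUBE2M and 260.1 and 255.1 CPM in siURM1. Its siUBE2M libraries were below all others, and it was 1.22 ± 0.06 higher on the log2 scale in siNAE1 than in siUBE2M (edgeR adjusted p = 2.8e-16).

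The mRNAs that the mitochondrial ribosome translates were mostly higher in siNAE1 and siURM1. Of 13 such mRNAs, 11 were higher and 2 lower in siNAE1, 12 higher and none lower in siURM1 with all 13 above 0, and 2 higher and 2 lower in siUBE2M, with medians of 0.32, 0.39 and 0.06. The 84.6% and 92.3% higher in siNAE1 and siURM1 stand beside 27.6% and 20.8% of all genes, and the 15.4% in each direction in siUBE2M beside 22.7% and 22.6%. The 2 lower in siNAE1 were MT-CYB and MT-CO2, at -0.20 each. All 13 summed to 116.6 ± 6.59 (SD, n = 3), 128.3 ± 5.09 (n = 2) and 98.4 ± 5.34 (n = 3) percent of control. The small subunit rRNA gene MT-RNR1 had 1578, 1818 and 1628 CPM in control, 3542, 3913 and 3895 CPM in siNAE1, 1298, 1289 and 1457 CPM in siUBE2M and 1599 and 2108 CPM in siURM1. It rose by 1.18 ± 0.08 in siNAE1 and fell by 0.31 ± 0.08 in siUBE2M (edgeR adjusted p = 0.00087). The large subunit rRNA gene MT-RNR2 was not called in siNAE1, with a value of -0.05 ± 0.07 in siNAE1 (edgeR adjusted p = 0.53), and fell by 0.53 ± 0.07 in siUBE2M (edgeR adjusted p = 1.1e-07). The libraries were selected for poly(A) RNA, so the level of an rRNA here also depends on its short tails, and its part in this difference was not tested.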

How the data were processed

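Strand-specific poly(A) libraries were read as paired ends. Per the labels and methods, the authors used fastp, HISAT2 2.0.5 against GRCh38 and featureCounts 1.5.0-p3, and tested with DESeq2 1.20.0. The annotation release and the strand setting of counting are not given in the sources used here. The authors deposited whole-number counts per gene and FPKM values, together with gene lengths, and these were used as deposited. FPKM values served only to compare levels between genes.

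Counts of all 11 libraries were fitted in 1 model with edgeR 4.0.16 (R 4.3.3, TMM scaling, filterByExpr, quasi-likelihood test, biological coefficient of variation 7.06%), with 6 contrasts and Benjamini-Hochberg adjustment over 18368 genes. CPM are counts scaled by TMM library sizes. Called means adjusted p below 0.05, and the study's threshold adds a log2 fold change of 1 or more in size. With 11733163 to 16321391 fragments per library, members of few counts have wide SEs. Alternatives were DESeq2 1.42.0, other scalings, filters, gene sets, a replicate block, glmTreat and leaving out each library, and, added after seeing the data, removed GC and length trends and members without a protein-coding overlap on the same strand. The fit was tested on simulated data. No 2 libraries were duplicates, as at least 26105 genes differed between any 2.

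Members and lists were chosen with earlier results of these data known. Members named in the text were those past the study's threshold in any knockdown, the 5 highest and 5 lowest called fold changes of each knockdown, up to 5 higher and 5 lower in all knockdowns, the 3 highest and 3 lowest of each direct contrast, the 5 highest and 3 lowest FPKM in control, and members not tested. From related lists, genes past the threshold were named, at most 4 per list and knockdown, with the targeted genes. PAX2, NEFL, LIN28B, MT-RNR2, MT-CYB, MT-CO2, MYC, MARS2 and GFM1 were named after their values were seen. C12orf65 and KIAA0391 were matched to MTRFR and PRORP by gene identifier.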

Additional observations from a re-analysis of the deposited data

Results flagged for a closer look

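Members named above and genes of the related lists whose response differed between knockdowns by at least 1 on the log2 scale, at an adjusted p below 0.05 in edgeR's direct comparison, are given here. MRPL38 was 1.02 ± 0.18 (SE) higher in siUBE2M than in siURM1 (edgeR adjusted p = 2.5e-05). MRM1, an rRNA methyltransferase, was 1.18 ± 0.16 higher in siNAE1 than in siUBE2M (edgeR adjusted p = 3.8e-07). MT-RNR1 was 1.49 ± 0.08 higher in siNAE1 than in siUBE2M (edgeR adjusted p = 3.1e-16) and 1.03 ± 0.09 higher than in siURM1 (edgeR adjusted p = 3.2e-11). MYC was 1.22 ± 0.06 higher in siNAE1 than in siUBE2M (edgeR adjusted p = 2.8e-16) and had -1.34 in siUBE2M against siURM1. MARS2, the mitochondrial methionyl-tRNA synthetase, was 1.14 ± 0.09 higher in siNAE1 than in siUBE2M, and GFM1, a mitochondrial elongation factor, had -1.08 ± 0.08 in siUBE2M against siURM1. Of the HEK293 lineage markers, NEFM was 1.30 higher in siNAE1 than in siUBE2M and had -1.31 in siUBE2M against siURM1, LIN28B was 1.06 higher in siNAE1 than in siUBE2M, and PAX2 had -1.004 in siNAE1 and -1.82 in siUBE2M against siURM1. The leukocyte marker CD14 was 1.62 higher in siNAE1 and 1.65 higher in siUBE2M than in siURM1, at no more than 3.16 CPM in any library. NAE1, UBE2M and URM1 were each targeted in 1 of the groups compared. In siNAE1, NAE1 had -1.64 against siUBE2M and -1.74 against siURM1. UBE2M was 3.82 higher in siNAE1 than in siUBE2M and had -3.61 in siUBE2M against siURM1. URM1 was 2.08 higher in siNAE1 and 1.64 higher in siUBE2M than in siURM1. Groups of 2 or 3 libraries are too small for a test of single outlying libraries.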

How the results depend on the processing

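Of 338 alternative values of the counts and medians of members, 315 stayed within 1.5 times the reported count or within 1 SD of the reported median. The number of members past the study's threshold in siNAE1 was 1 in place of 2 with library totals, upper quartile scaling, at least 10 counts in every library, protein-coding genes alone, 2 groups per fit, removed GC and length trends, or members that no other protein-coding gene overlaps on the same strand, and 0 with glmTreat, which also gave 0 in siUBE2M. With library totals the siNAE1 median was 0.12 and the siURM1 median 0.031, 9 members were higher in siUBE2M and 19 in siURM1. With GC and length trends removed the siNAE1 median was 0.18 and the siURM1 median 0.067, and in siURM1 16 members were lower and 1 passed the study's threshold. On the TPM scale the control median of the members was 79.1 in place of 21.6 FPKM, since the unit differs. Leaving out each library gave 1 to 3 members past the threshold in siNAE1, 8 to 15 members higher in siUBE2M and 6 to 10 lower in siURM1. The causes were not tested.

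No pairing by replicate number was seen, as 0 of 15 pairs with the same number had a correlation of deviations above 0.1 (range -0.066 to 0.079, highest between different numbers 0.073). The deviations are from means of 2 or 3 libraries, so this cannot show that libraries were not handled in pairs. With the replicate number as a block, 31 members were higher and 9 lower in siURM1, the median was 0.15, and the counts of members in siNAE1 and siUBE2M were those reported. Over all genes the block moved the calls from 10047 to 9990 in siNAE1, 8317 to 8290 in siUBE2M and 7641 to 7428 in siURM1. For named members, 2043 of 2079 alternative values kept direction and call, 26 lost and 10 gained the call, and 0 reversed. With 2 siURM1 libraries and few counts for MRPL38, MRPS28 and MRPL53, small differences there were hard to detect.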
